A study of Mus musculus with 8 samples.

Results

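The adaptor protein complex AP-1 is a coat component that selects membrane cargo at the trans-Golgi network and on endosomes, and it is unrelated to the Fos and Jun transcription factor of the same name. Its 7 subunit genes measured here, Ap1s1, Ap1s2, Ap1s3, Ap1m1, Ap1b1, Ap1g1 and Ap1g2, were taken from a table of 25834 genes. All 7 passed the filter on low counts and were among the 16251 genes tested. The set was chosen by complex membership because Ap1s2 was lower in SAP97-cKO than in control hippocampus, and the question was whether the remaining subunits moved with it. Ap1s2 is therefore described without a test, while the other 6 genes were included by family and not by their own values and were tested.

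Hippocampal RNA of male mice was sequenced, with 1 library from each of 4 control and 4 SAP97-cKO animals. SAP97-cKO mice carried Nestin-cre and homozygous floxed SAP97 alleles (Nestin-cre+/-; SAP97fl/fl). Cre driven by the Nestin promoter acts in neural progenitors, so that neurons and most glia descend from recombined cells, whereas meningeal, vascular and microglial cells largely do not. Controls were littermates that carried Nes-cre alone, floxed alleles alone or neither, and the sources used here do not state which control library had which genotype, any batch, or the age of the mice used for RNA-seq (an age is given only for tissue taken for protein blots). SAP97, encoded by Dlg1, is a synaptic scaffold protein.

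AP-1 is a heterotetramer of a gamma and a beta1 large subunit, a mu1 medium subunit and a sigma1 small subunit. The GTPase Arf1 recruits it to membranes, where mu1 and the gamma-sigma1 face recognize sorting signals in cargo and beta1 binds clathrin. Each complex holds a single sigma1 subunit, for which Ap1s1, Ap1s2 and Ap1s3 are alternative genes, and a single gamma subunit from Ap1g1 or Ap1g2. Ap1s2 is X-linked, and mutations of its human counterpart cause a form of X-linked intellectual disability.

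The 3 sigma genes encode similar proteins, so the likeness of their transcripts bears on whether a read can be assigned to one of them. In the GENCODE M21 transcripts of GRCm38, the aligned coding bases of Ap1s2 were 73.6% identical to those of Ap1s3, and those of Ap1g1 63.9% identical to those of Ap1g2. The longest run of bases that Ap1s2 shared with any transcript of Ap1s1 was 14 and with Ap1s3 it was 21. None of the 50-base words of the Ap1s2, Ap1s1, Ap1m1 or Ap1b1 transcripts occurred in a transcript of another gene. Such words made up 16.3% of Ap1s3, 17.6% of Ap1g1 and 8.14% of Ap1g2, and reads from those stretches may be shared with other genes.

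Ap1s2 (ENSMUSG00000031367, plus strand of chromosome X, 163909017 to 163933666 of GRCm38) was lower in every SAP97-cKO library than in every control library. After TMM scaling, which adjusts for differences in RNA composition between libraries, the 4 controls held 2131, 2315, 2259 and 2111 counts. The 4 SAP97-cKO libraries held 1610, 1770, 1873 and 1752 counts. The highest SAP97-cKO library was thus below the lowest control. Controls averaged 2204 ± 98.8 counts and SAP97-cKO libraries 1751 ± 108 (SD, n = 4 each), which is 79.5% of control. The log2 fold change of SAP97-cKO over control was -0.33 (standard error 0.067, 95% interval -0.48 to -0.18), and it is the value that chose the set. The spread between libraries of a genotype was 4.48% of the mean in controls and 6.19% in SAP97-cKO, against 2.25% from counting error alone. In these bulk samples, fewer cells of a type that expresses Ap1s2 and less Ap1s2 RNA per cell cannot be told apart.

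None of the other 6 subunit genes passed the threshold of the study, a false discovery rate under 0.25 by edgeR's quasi-likelihood test, which 48 of all genes tested (0.295%) passed. The count was also 0 with limma-voom and with DESeq2. At an unadjusted p under 0.05, 1 of the 6 passed (Ap1b1), against 11.7% of all genes tested. The libraries of the genotypes were separate for 0 of the 6, against 6.25% of all genes tested. Their log2 fold changes were above 0 for 5 genes and below 0 for 1, from -0.012 (Ap1g1) to 0.17 (Ap1s3). The median was 0.074, and that of all genes tested was -0.012. The 95% intervals of 5 of the 6 lay wholly above the -0.33 of Ap1s2, and that of Ap1g2, a gene with few counts, did not. That value chose the set and had its own interval of -0.48 to -0.18. Comparisons with -0.33, here and below, are therefore descriptions and do not test a difference between genes.

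**Figure D1:**
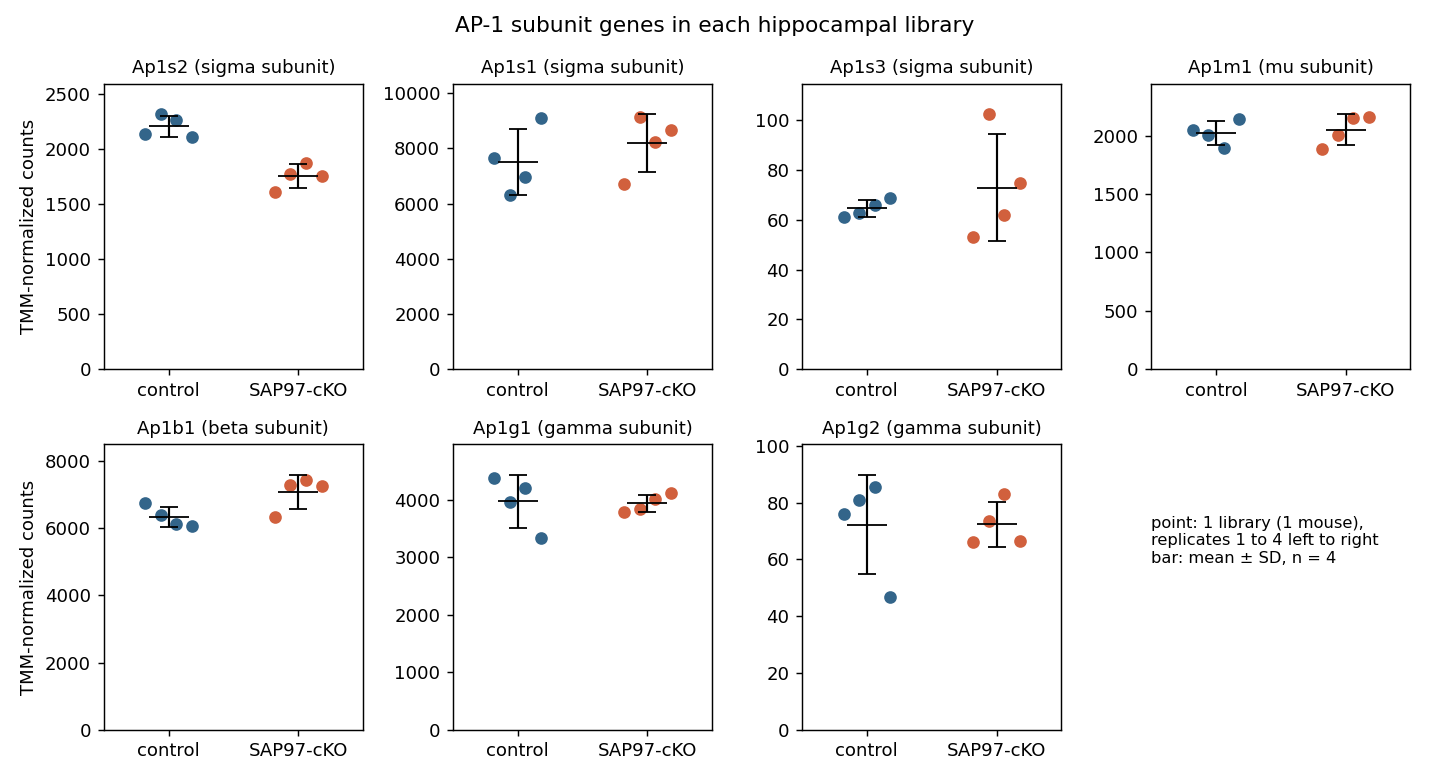
TMM-normalized counts (vertical axes, each from 0) of the 7 AP-1 subunit genes in the 4 control (blue) and 4 SAP97-cKO (orange) libraries, with replicates 1 to 4 from left to right and bars for the mean ± SD (n = 4). Ap1s2 is the one gene whose genotypes do not overlap, with 2111 to 2315 counts in control and 1610 to 1873 in SAP97-cKO.

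**Figure D2:**
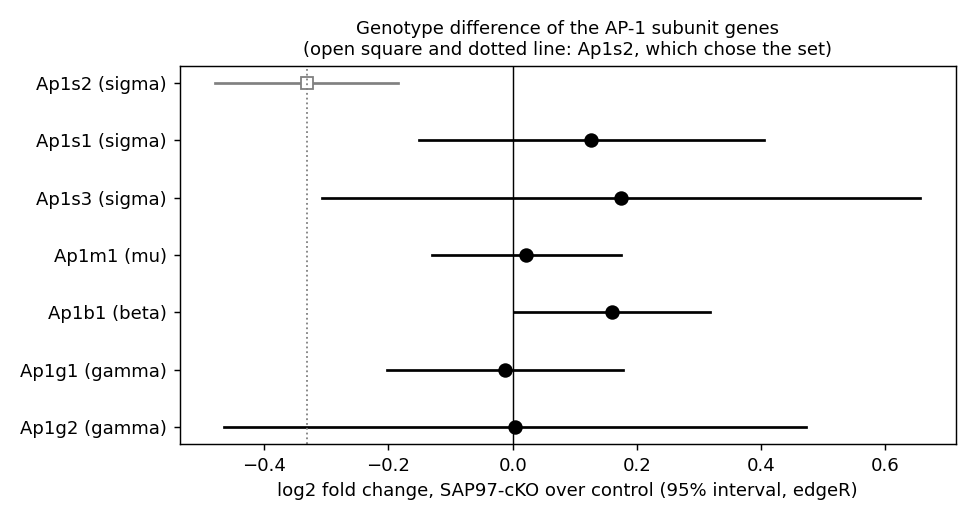
Log2 fold change of SAP97-cKO over control (horizontal axis) of each AP-1 subunit gene with its 95% interval from edgeR. Ap1s2, which chose the set, is the open square with a dotted line at its value of -0.33, and the filled points of the other 6 genes lie between -0.012 and 0.17.

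Among the other sigma subunits, Ap1s1 (ENSMUSG00000004849, minus strand of chromosome 5, 137034993 to 137046135) had 7655, 6303, 6952 and 9098 counts in controls. Its SAP97-cKO libraries had 6716, 9131, 8231 and 8684 counts. The groups overlapped over most of their range, with means of 7502 ± 1199 and 8190 ± 1050 (SD, n = 4 each). A log2 fold change of 0.13 was fitted (standard error 0.12, 95% interval -0.15 to 0.40, adjusted p = 0.681). Ap1s1 varied more between SAP97-cKO mice than Ap1s2 did, by 12.8% against 6.19% of the mean.

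Ap1s3 (ENSMUSG00000054702, minus strand of chromosome 1, 79606876 to 79671972), the third sigma gene, was scarce. Controls held 61.0, 62.8, 66.0 and 68.9 counts, and SAP97-cKO libraries 53.0, 102.5, 61.8 and 74.7. The second SAP97-cKO library was high and the others spanned the control range. Its log2 fold change of 0.17 had a 95% interval of -0.31 to 0.66 (adjusted p = 0.749), whose lower end is close to the value of Ap1s2. Without SAP97-cKO 2 its log2 fold change was -0.035. The 8 libraries held 551 counts of Ap1s3 in all, against 15850 of Ap1s2.

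The sigma genes were also compared as shares of their summed level per kilobase of exon, a scale on which genes of different length can be set side by side. Ap1s2 made up 10.9, 13.9, 12.5 and 9.27% of the sigma level in controls. It made up 9.54, 7.84, 9.11 and 8.15% in SAP97-cKO. The means were 11.6 ± 2.00% and 8.66 ± 0.798% (SD, n = 4 each), and here the groups overlapped, as control 4 lay below SAP97-cKO 1. Control 4 held the highest Ap1s1 count of the controls, 9098. Ap1s1 supplied 87.8 ± 2.06% of the sigma level in controls and 90.7 ± 0.701% in SAP97-cKO. The summed sigma level was 3879 ± 528 counts per kilobase in controls and 4104 ± 499 in SAP97-cKO. These shares use Ap1s2 and are given without a test.

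Ap1m1 (ENSMUSG00000003033, plus strand of chromosome 8, 72240018 to 72257385) encodes the mu1 subunit, which binds tyrosine-based sorting signals. Its counts were 2047, 2004, 1895 and 2145 in controls and 1887, 2011, 2155 and 2163 in SAP97-cKO. The groups covered nearly the same range. At a log2 fold change of 0.022 (standard error 0.068, 95% interval -0.13 to 0.17, adjusted p = 0.912), Ap1m1 was measured with about the same error as Ap1s2, and its interval did not reach -0.33. Ap1m2, the mu1 form of epithelial cells, had 5 to 24 raw counts per library and was not tested.

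Ap1b1 (ENSMUSG00000009090, plus strand of chromosome 11, 4986824 to 5042791) encodes the beta1 subunit, which carries the clathrin-binding hinge. Controls held 6746, 6409, 6134 and 6079 counts, and SAP97-cKO libraries 6326, 7307, 7441 and 7258. SAP97-cKO 2, 3 and 4 were above every control, and SAP97-cKO 1 lay within the control range. The means were 6342 ± 306 and 7083 ± 511 (SD, n = 4 each). The fitted log2 fold change was 0.16 (standard error 0.071, 95% interval 0.0016 to 0.32), with an unadjusted p of 0.0481 and an adjusted p of 0.422 by edgeR's quasi-likelihood test. Ap1b1 was thus the member nearest to a call, in the direction opposite to Ap1s2, and it did not pass. Without SAP97-cKO 1 the log2 fold change was 0.22 (adjusted p = 0.228) and Ap1b1 passed the threshold. That fit called 450 genes lower and 261 higher of 16474 tested, against 48 in the comparison reported.

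Ap1g1 (ENSMUSG00000031731, plus strand of chromosome 8, 109778554 to 109864204) encodes the main gamma subunit, whose ear domain binds accessory proteins. Its counts were 4385, 3974, 4211 and 3331 in controls and 3798, 3841, 4011 and 4118 in SAP97-cKO. All 4 SAP97-cKO values fell inside the control range, whose lower end was set by control 4. The fit gave a log2 fold change of -0.012 (standard error 0.086, 95% interval -0.20 to 0.18, adjusted p = 0.966). Without control 4 it was -0.087 (adjusted p = 0.543). Ap1g1 shares 1435 exon bases with Gm17344 on the opposite strand, and the sources used here do not say if reads were counted by strand, so reads of that stretch may belong to either gene.

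Ap1g2 (ENSMUSG00000040701, minus strand of chromosome 14, 55098575 to 55106593), the second gamma gene, had 76.0, 80.7, 85.5 and 46.6 counts in controls and 66.2, 73.7, 83.1 and 66.4 in SAP97-cKO. Control 4 was again the lowest library and the means were nearly equal, at 72.2 ± 17.5 and 72.3 ± 7.95 (SD, n = 4 each). Their log2 fold change was 0.0032 with an interval of -0.47 to 0.47 (adjusted p = 0.996), which is too wide to exclude a difference of the size of Ap1s2's. It overlaps Thtpa by 412 exon bases on the opposite strand. The share of Ap1g1 in the summed gamma level per kilobase was 96.8 ± 0.521% in controls and 96.7 ± 0.345% in SAP97-cKO. The difference of -0.067 percentage points was within the spread (exact two-sided permutation test over 70 assignments, p = 0.857, where the smallest possible p is 0.0286).

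Control 4 stood apart from the other controls in a way that touched several members. It was the highest control for Ap1s1, Ap1s3 and Ap1m1 and the lowest for the other 4 members. Over all genes tested it was the lowest or highest control for 67.3%, against 38.0 to 53.5% for the other controls. Among the SAP97-cKO libraries this share ran from 32.4 to 60.8%, highest in SAP97-cKO 1, so control 4 was not alone in a high share. Relative to the other controls, the median log2 deviation of control 4 was 0.23 for genes with under 2000 bases of exon and -0.19 for genes with over 6000 bases. Across the other 7 libraries these medians lay between -0.14 and 0.082, each against its own genotype. Without control 4 the log2 fold changes were -0.35 for Ap1s2 and 0.23 for Ap1s1 (adjusted p = 0.435), and none of the 6 other members passed.

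Per kilobase of exon the order of the members was the same in both genotypes. Control levels were 3413 ± 545 counts per kilobase for Ap1s1, 1279 ± 61.7 for Ap1b1, 635 ± 32.6 for Ap1m1 and 518 ± 60.1 for Ap1g1. They were 444 ± 19.9 for Ap1s2 and 22.5 ± 1.22 for Ap1s3 (SD, n = 4 each), and Ap1g2 averaged 17.3 with a range of 11.2 to 20.5. Ap1s1 was therefore the leading sigma gene and Ap1g1 the leading gamma gene. Neighbours in this order did not overlap between libraries, except Ap1g1 and Ap1s2 in controls and Ap1s3 and Ap1g2 in SAP97-cKO. In SAP97-cKO, Ap1g1 had 494 to 536 counts per kilobase and Ap1s2 324 to 377, without overlap. The overlap of this pair in controls rested on control 4 alone. There Ap1g1 had 434 counts per kilobase, against 425 to 466 for Ap1s2 in controls. Among all genes tested that had a length, the percentile of the level per kilobase was 97.7 for Ap1s1, 92.1 for Ap1b1, 82.1 for Ap1m1, 78.2 for Ap1g1, 72.8 for Ap1s2, 20.2 for Ap1s3 and 16.2 for Ap1g2.

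The genes of proteins that act with AP-1 and of the other adaptor complexes were examined next, and none of them passed the threshold. That count depended on the method, as DESeq2 called Arf3 (adjusted p = 0.0814), M6pr (0.220) and Ap2a1 (0.236), and edgeR without control 1 called these and Pacs1. Both fits called many more genes of every kind than the 48 of the comparison reported. DESeq2 called 588 lower and 445 higher of 16251, and edgeR without control 1 called 960 and 715 of 16469. Of 22 genes for clathrin chains, AP-1 accessory proteins, the related GGA adaptors and the Arf proteins and their exchange factors, 21 were tested, and 15 had a log2 fold change above 0 and 6 below (median 0.058). Clathrin heavy chain Cltc had 21934 ± 3110 counts in controls and 23854 ± 572 in SAP97-cKO (log2 fold change 0.12, standard error 0.10, adjusted p = 0.632). The light chains had values of -0.023 for Clta (standard error 0.090, adjusted p = 0.931) and -0.047 for Cltb (standard error 0.069, adjusted p = 0.788). Clathrin transcripts thus showed no difference beyond their spread. Arf3, a Golgi Arf GTPase, had the smallest unadjusted p of this list, with 51280 ± 3921 counts in controls and 60863 ± 3507 in SAP97-cKO. Its libraries did not overlap (47561 to 56551 against 57720 to 65296), which held for 6.25% of all genes tested. At a log2 fold change of 0.25 and a standard error of 0.082, the adjusted p of Arf3 was 0.348.

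Of 8 genes for cargo sorted by AP-1 and its cargo connector, 5 were above 0 and 3 below (median 0.12), and none passed. M6pr, the cation-dependent mannose 6-phosphate receptor that carries lysosomal enzymes, had the smallest unadjusted p of this list. It held 4538 ± 235 counts in controls and 4060 ± 103 in SAP97-cKO, and its libraries did not overlap (4362 to 4883 against 3921 to 4155). The difference was -0.16 on the log2 scale (standard error 0.060), with an adjusted p of 0.372. Atp7a, a copper transporter that was named after its value was seen, had the lowest log2 fold change of these genes at -0.42, with a standard error of 0.26 and overlapping libraries (adjusted p = 0.527).

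The other adaptor complexes also gave no gene past the threshold. All 5 genes of AP-2, which serves endocytosis at the plasma membrane, were above 0 (median 0.16). The lowest adjusted p among them was 0.385, for Ap2a1 with 8809 ± 636 counts in controls and 10090 ± 680 in SAP97-cKO (log2 fold change 0.20, standard error 0.076). AP-3, which sorts proteins to lysosome-related organelles and synaptic vesicles, had 5 of 7 genes above 0 (median 0.080), led by its neuronal subunit Ap3b2 at 0.15 (standard error 0.083, adjusted p = 0.479). AP-4 had 2 of 4 genes above 0 (median -0.0049) and AP-5 had 1 of 4 (median -0.042). Their smallest unadjusted p values belonged to Ap4b1 at -0.26 (standard error 0.19, adjusted p = 0.591) and Ap5z1 at 0.13 (standard error 0.071, adjusted p = 0.497). Across all 49 genes of these 6 lists, 33 were above 0 and 16 below, and the 95% intervals of 43 lay above -0.33. An unadjusted p under 0.05 was reached by 3 of the 49 (Arf3, M6pr and Ap2a1), a smaller share than the 11.7% of all genes tested. Besides Arf3 and M6pr, the genotypes did not overlap for 1 gene of AP-3 and 1 of AP-5 (Ap5z1), and for 0 of AP-2 and AP-4. Over all genes tested this held for 6.25%, so separation was not particular to Arf3 and M6pr.

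**Figure D3:**
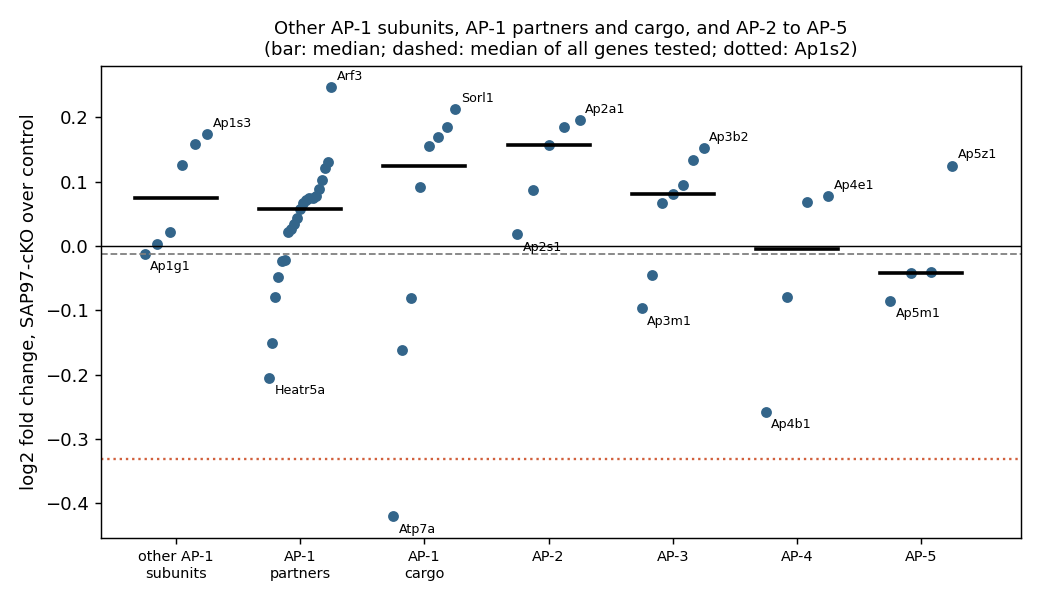
Log2 fold change of SAP97-cKO over control (vertical axis) of each gene tested in the lists named on the horizontal axis, with the median of each list as a bar, the median of all genes tested as a dashed line and Ap1s2 as a dotted line. Medians run from -0.042 (AP-5) to 0.16 (AP-2), and Atp7a at -0.42 is the one gene below Ap1s2.

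The genes on either side of Ap1s2 on chromosome X were examined for a shared difference. Zrsr2, which starts at 163935443, held 1560 ± 102 counts in controls and 1663 ± 44.0 in SAP97-cKO (log2 fold change 0.092, standard error 0.066, adjusted p = 0.578). Ctps2, on the other side, differed by -0.030 on the log2 scale (standard error 0.068, adjusted p = 0.873). The remaining 4 neighbours tested, Grpr, Rnf138rt1, Car5b and Siah1b, had 185 to 1588 counts over all 8 libraries, overlapping groups and adjusted p values of 0.884 to 0.997. None of the 6 neighbours passed the threshold.

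Within a genotype, Ap1s2 varied little, and its deviations from the genotype mean were compared with those of all other genes over the 8 libraries, which differ in cell make-up as well as in any other respect. The most alike were Cndp2 (Pearson's r = 0.969, Spearman's rho = 1), Bcl2l1 (0.969 and 0.929), Pcbp2 (0.965 and 1), Nop14 (0.962 and 0.905) and Sgsh (0.950 and 0.952). These genes were picked as the highest of 16250 over few libraries, so the size of r is a result of that choice. None of these 5 genes passed the threshold between genotypes, with log2 fold changes of -0.059 to 0.051. For example, Cndp2 held 1757 ± 79.0 counts in controls and 1751 ± 138 in SAP97-cKO. Of the other subunits Ap1g2 had the highest r with Ap1s2 at 0.635, only rank 624 of 16250 genes, and Ap1s1 the lowest at -0.026. Without SAP97-cKO 1 and 3, the libraries farthest from the median of Ap1s2, these values of r were 0.705 and -0.80. Ap1m1 went from 0.270 to -0.64 and Ap1b1 from 0.617 to -0.035, so most of these values rest on those libraries.

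Markers of other tissues differed between these libraries and are given beside Ap1s2. Dlg1 held 4338 ± 336 counts in controls and 2393 ± 470 in SAP97-cKO and did not overlap between genotypes. Hippocampal subfield and neuron markers were detected in every library. Of the 12 meningeal fibroblast markers, Igf2, Dcn and Slc13a4 were the most abundant, and these did not pass the threshold. All 12 were below 0, Dcn at only -0.0076, and 6 others passed, against 0.295% of all genes tested. Those 6 are all among the genes that the paper lists as differing in these same libraries. Their passing is therefore not an independent result. The summed level of the 12 was 10723 to 20510 counts in controls and 6149 to 10733 in SAP97-cKO. All 10 choroid plexus markers, of which Ttr, Kl and Clic6 were the most abundant, were below 0 with 0 past the threshold. They summed to 6595 to 257756 in controls and 3830 to 88436 in SAP97-cKO. No marker of either list was at 0.

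In controls, the order of the 4 libraries by Ap1s2 was that of their choroid plexus sum and also that of their fibroblast sum. In SAP97-cKO the order by Ap1s2 was that of neither sum. The fibroblast sums of the genotypes met only between SAP97-cKO 2 (10733) and control 4 (10723), so the genotypes can hardly be compared at equal fibroblast levels. With the fibroblast score of each library as a covariate in the fit, the log2 fold change of Ap1s2 was -0.25, and with the choroid plexus score it was -0.30. These scores differ between the genotypes themselves, and the fibroblast score includes genes that the paper lists as differing in these libraries. The part of either tissue in the difference of Ap1s2 was not tested further.

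**Figure D4:**
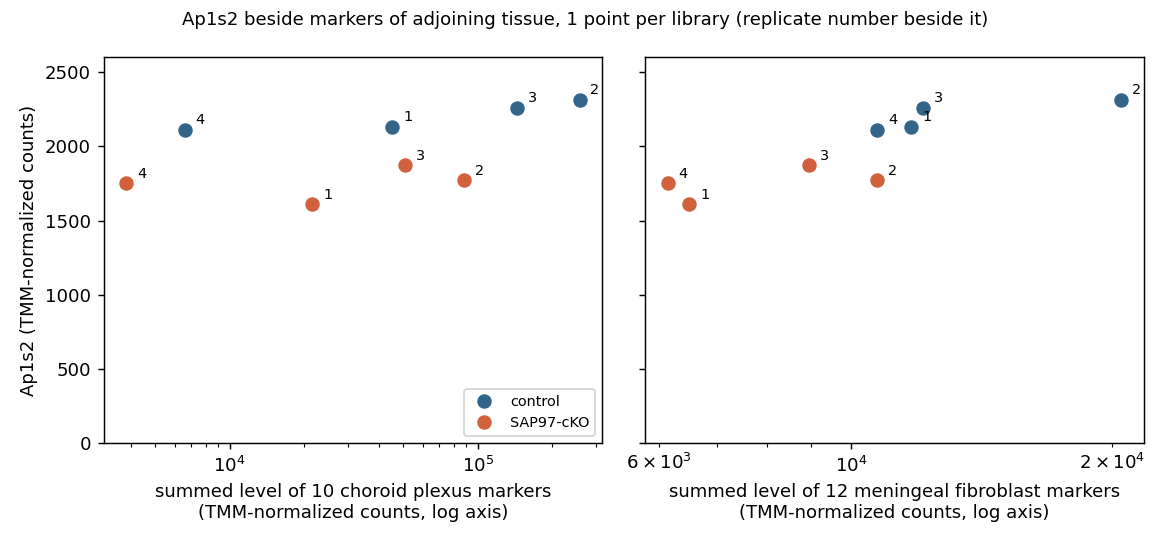
Ap1s2 in TMM-normalized counts (vertical axis from 0) against the summed level of 10 choroid plexus markers (left) and 12 meningeal fibroblast markers (right) on log axes, 1 point per library with its replicate number. The choroid plexus sums of the genotypes overlap widely (6595 to 257756 in control, 3830 to 88436 in SAP97-cKO), whereas the fibroblast sums meet only at 10723 and 10733.

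Ap1b1 was highest in the libraries with the lowest oligodendrocyte marker levels. All 8 oligodendrocyte markers, Mbp and Mobp among them, were below 0 (median log2 fold change -0.51) with 0 past the threshold, and summed to 213405 to 342477 counts in controls and 166012 to 299782 in SAP97-cKO. The 4 libraries with sums of up to 213405, which are SAP97-cKO 2, 3 and 4 and control 1, held 6746 to 7441 counts of Ap1b1. The 4 libraries with sums of 289870 or more, which are SAP97-cKO 1 and controls 2, 3 and 4, held 6079 to 6409. With the oligodendrocyte score as a covariate the log2 fold change of Ap1b1 was 0.032, against 0.16 without it, and that of Ap1s2 was -0.38. This score lowered every other member too, so the shift was not particular to Ap1b1. Ap1s1 went from 0.13 to -0.024, Ap1s3 from 0.17 to -0.048 and Ap1m1 from 0.022 to -0.043. Ap1g1 went from -0.012 to -0.13 and Ap1g2 from 0.0032 to -0.14. With the fibroblast or choroid plexus score instead, Ap1b1 was at 0.24 or 0.17, and it passed the threshold with none of these scores. With the oligodendrocyte or fibroblast score 0 of all genes tested passed, so the threshold says nothing of Ap1b1 in those fits. With the choroid plexus score 15 genes were called lower and 1 higher. Neuron markers, of which Camk2a, Snap25 and Syt1 were the most abundant, had a median of 0.14 with 0 of 8 past the threshold. The part of these markers in the difference of Ap1b1 was not tested further.

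**Figure D5:**
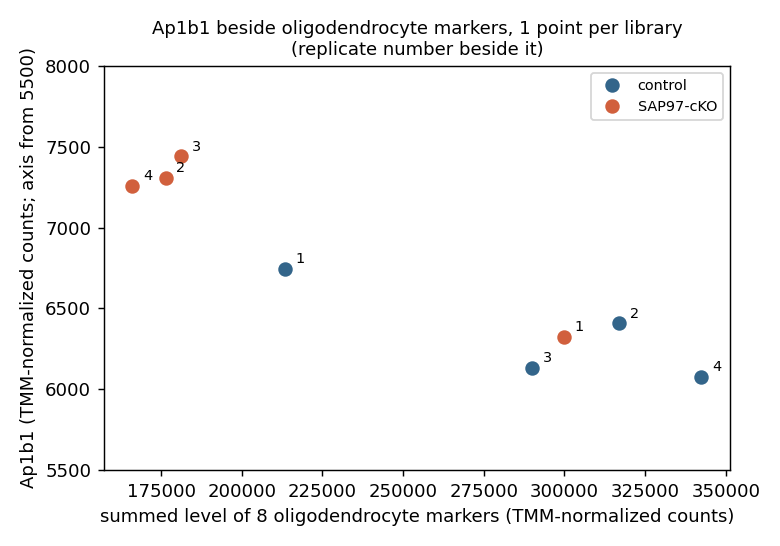
Ap1b1 in TMM-normalized counts (vertical axis not from 0) against the summed level of 8 oligodendrocyte markers in counts, 1 point per library with its replicate number, control in blue and SAP97-cKO in orange. SAP97-cKO 1 (299782 and 6326 counts) lies among the controls on both axes.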

How the data were processed

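The deposited table gave whole-number counts per gene for 4 control and 4 SAP97-cKO hippocampi. The authors prepared libraries with a TruSeq RNA kit, used STAR 2.5.3a for alignment to the mm10 genome (GRCm38.p5), and ran their PORT pipeline to remove ribosomal and mitochondrial reads, to resample each library to a common depth and to count reads per Ensembl gene. The authors' own columns of log2 fold changes, p-values and q-values of their limma-voom comparison were not used. Libraries held 37388177 to 37426572 counts, so precision differed little between them.

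Genes were kept with filterByExpr (minimum count 10, minimum total 15) and scaled by TMM (factors 0.964 to 1.03). The 2 genotypes were tested in R 4.3.3 with edgeR 4.0.16 (glmQLFit and glmQLFTest), and p-values were adjusted by the Benjamini-Hochberg method across 16251 genes against the threshold of the study, an FDR under 0.25. Adjusted p values in the report are from this test, except those given for DESeq2. Those given without a single library are from the same test refitted to the remaining libraries. A 95% interval was taken from the standard error of the log2 fold change. Alternatives were limma 3.58.1 (voom), DESeq2 1.42.0, other scalings and filters, marker covariates, a replicate block and each library left out in turn. The gamma share was compared by exact permutation (scipy 1.17.1), and plots were drawn with matplotlib 3.10.9.

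Of 25834 identifiers, 25696 were matched to GENCODE M21 (GRCm38), the source of coordinates, exon lengths and transcript comparisons. Members and gene lists were chosen with earlier results of these data known. Named were the members, Dlg1, clathrin genes and Ap1m2, of each adaptor list the gene with the smallest unadjusted p, the 3 genes tested on each side of Ap1s2, the 5 genes most alike to it within genotypes and the 3 most abundant genes of a marker list. One gene named by this rule and the sequences of the sigma genes are not reported here. Atp7a, the comparison of control 4 by gene length and the choroid plexus covariate were added after the values had been seen. Marker scores summarize the log2 levels of a list in a library. Mice are separate animals, and the labels name no batch.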

Additional observations from a re-analysis of the deposited data

Results flagged for a closer look

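In 10 of 138 groups of 4 libraries, checked over the members, the adaptor pathway genes, Dlg1, the neighbours of Ap1s2 and the genes most alike to it, 1 library lay far from the other 3 by Dixon's ratio, the gap to the nearest library over the range, past its 95% critical value. Chance alone flags about 1 in 20 groups. Ap1b1 had 6325.5 normalized counts in SAP97-cKO 1 and 7258 to 7441 in the other SAP97-cKO libraries, a ratio of 0.836. Ap1m2, the epithelial mu1 gene, had 23.9 counts in SAP97-cKO 2 and 5.09 to 6.08 in the others, at counts too low to be tested. The clathrin genes Clta and Cltc stood apart in control 4 in opposite directions, Clta with 7814 counts against 6075 to 6235 and Cltc with 17301 against 23033 to 23925. Gga2 and Igf2r were also low in control 4, with 879 counts against 979 to 989 and 815 against 1579 to 1735. SAP97-cKO 1 stood apart for Heatr5a, with 713 counts against 469.9 to 498.3, and for Ap2m1, with 12228 against 15591 to 16117. Ap4e1 had 396 counts in SAP97-cKO 3 and 316 to 327 in the others. Siah1b, a neighbour of Ap1s2, had 236 counts in SAP97-cKO 4 and 183 to 186 in the others.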

How the results depend on the processing

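Ap1s2 kept its direction in all 18 alternatives, with log2 fold changes of -0.36 to -0.29 without single libraries and -0.38 to -0.25 otherwise, of which -0.25 came with the meningeal fibroblast covariate. The count of other subunits past the threshold was 0 in all alternatives except without SAP97-cKO 1, where it was 1 (Ap1b1), so it ranged from 0 to 1 without single libraries. Genes of the adaptor lists past the threshold numbered 3 with DESeq2 (Arf3 and Ap2a1 higher, M6pr lower). Without single libraries they numbered 0 to 4, with 4 without control 1 (Arf3, M6pr, Ap2a1 and Pacs1) and 2 without SAP97-cKO 1 (Ap2a1 and Ap2a2). Over all genes the calls numbered 48 in the comparison reported, 588 lower and 445 higher with DESeq2, 960 and 715 without control 1, 450 and 261 without SAP97-cKO 1, and 0 without control 2, SAP97-cKO 3 or SAP97-cKO 4 or with the fibroblast or oligodendrocyte covariate.

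The small differences of the other members changed sign in 17 of 108 member values, none past the threshold and none over 0.16 in size, and the cause was not tested. With no scaling, which moved the median of all genes to -0.058, Ap1g2 was at -0.040 and Ap1m1 at -0.024. With the fibroblast covariate Ap1m1 was at -0.0082, and Ap1s3 and Ap1g2 were farther from 0, at 0.44 and 0.26. With the oligodendrocyte covariate Ap1g2 was at -0.14, Ap1m1 at -0.043, Ap1s1 at -0.024 and Ap1s3 at -0.048. With the choroid plexus covariate, added after seeing the data, Ap1g1 was at 0.019 and Ap1m1 at -0.0088. Without single libraries Ap1g1 ranged from -0.087 to 0.039, Ap1g2 from -0.16 to 0.11, Ap1s1 from 0.052 to 0.23, Ap1s3 from -0.035 to 0.31 and the gamma share difference from -0.20 to 0.16 points.

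With a replicate block, Ap1s2 was at -0.33, 0 other members passed and 256 genes were called in all (234 lower and 22 higher). Deviations of libraries with the same number correlated at -0.062, 0.201, 0.0898 and 0.259. Controls 2, 3 and 4 matched their own number best and control 1 matched SAP97-cKO 4 best, and since not every pair correlated, the numbers were not taken to pair mice. For the gamma share the paired sign-flip test gave p = 0.625 (exact, smallest possible 0.125). Depth limits Ap1s3 and Ap1g2, with 551 and 578 counts over all libraries, and leaves a difference of the size of Ap1s2's undecided for Ap1g2. The interval of Ap1s3 has its lower end at -0.31, above the -0.33 of Ap1s2 but inside the interval of Ap1s2.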
